A study of Mus musculus with 12 samples.

Results

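The 10 genes described here encode the urea cycle of the liver and the enzymes that feed it with ammonia: Gls2, Nags, Cps1, Otc, Slc25a15, Ass1, Asl, Arg1, Hal and Sds. They were taken by gene symbol from a matrix of 55903 genes measured by RNA-seq in 12 mouse liver libraries, and each symbol matched 1 row. The libraries form 3 groups of 4. The first group, called KSL0608-Se treated here, carries doxo and the coded compound KSL0608-Se in its description. The second, called aged/doxo, is titled an aged control while its description reads doxo. The third is young control liver. The labels state neither strain, age, sex nor dose, do not spell out doxo, and do not say how many animals stand behind the libraries of a group. All p-values below therefore measure the spread between libraries, which may be technical. The same holds for every SD, and n counts libraries, also where the text says livers.

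The urea cycle turns toxic ammonia into urea and runs at full capacity only in hepatocytes. Ammonia enters in the mitochondrion, where carbamoyl phosphate is made and joined to ornithine, and the resulting citrulline is converted to arginine and then to urea and ornithine in the cytosol. In rodent liver these enzymes are most abundant in the hepatocytes around the portal vein, while the cells around the central vein capture leftover ammonia as glutamine. Bulk RNA holds all zones together, so zonation itself was not measured.

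RefSeq promoter sequence on GRCm38.p6 was matched for 5 of the 10 genes, and 4 are shown because these genes differ in their spread over the 12 libraries. The highest library held 5.60 times the lowest for Slc25a15, 2.88 times for Nags, 1.81 times for Otc and 1.45 times for Hal. Each line gives the 250 bases before the RefSeq transcription start, 5′ to 3′ on the gene's strand, at chr8:22398622-22398871 on the minus strand for Slc25a15 and on the plus strand at chr11:102145263-102145512 for Nags, chrX:10252055-10252304 for Otc and chr10:93488518-93488767 for Hal. Capitals mark matches, on either strand, to any of 5 motifs. The GC box was searched as GGGCGG. The box bound by NF-Y was searched by the letters CCAAT. The TATA box was searched as TATAAA and the core of the cAMP response element, bound by CREB, by the letters TGACG. The motif of the C/EBP factors was searched as TTGCNNAA. The window before the Ass1 start overlaps an annotated exon and was searched but is not printed.
Slc25a15: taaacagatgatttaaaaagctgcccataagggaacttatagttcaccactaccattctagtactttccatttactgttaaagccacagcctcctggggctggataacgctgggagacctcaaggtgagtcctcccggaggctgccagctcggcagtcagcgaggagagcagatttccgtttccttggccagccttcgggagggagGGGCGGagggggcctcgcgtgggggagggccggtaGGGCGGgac
Nags: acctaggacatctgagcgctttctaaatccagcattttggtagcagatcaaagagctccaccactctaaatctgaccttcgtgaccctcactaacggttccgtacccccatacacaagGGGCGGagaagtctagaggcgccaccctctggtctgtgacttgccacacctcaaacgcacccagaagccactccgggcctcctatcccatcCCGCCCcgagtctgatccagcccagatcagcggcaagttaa
Otc: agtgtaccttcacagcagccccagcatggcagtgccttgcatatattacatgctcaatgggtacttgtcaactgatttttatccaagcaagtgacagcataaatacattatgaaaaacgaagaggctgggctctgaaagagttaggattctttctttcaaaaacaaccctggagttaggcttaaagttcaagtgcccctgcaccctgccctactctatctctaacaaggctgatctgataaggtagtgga
Hal: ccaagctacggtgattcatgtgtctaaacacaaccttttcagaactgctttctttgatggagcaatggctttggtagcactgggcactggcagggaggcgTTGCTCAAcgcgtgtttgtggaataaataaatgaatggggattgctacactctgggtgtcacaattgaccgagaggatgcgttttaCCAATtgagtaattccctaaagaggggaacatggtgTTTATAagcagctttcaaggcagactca
The GC box had 2 matches each before Slc25a15 and Nags, 1 before Ass1, and none before Otc or Hal. It occurs in 32.7% of 32817 RefSeq windows of the same length. Hal alone held a TATA box match, starting 28 bases before its start site, with an NF-Y box match at 64 and a C/EBP match at 150 bases. These motifs occur in 12.4%, 33.8% and 9.57% of windows. The cAMP response core occurs in 17.7% of windows and in none of these 5. The windows differ in composition too, with 57.6%, 55.6% and 75.6% G and C before Slc25a15, Nags and Ass1, against 43.6% before Otc and 45.6% before Hal. Slc25a15 has another RefSeq start further downstream, whose window held 5 GC box matches and is not printed. The printed Slc25a15 start lies 24 bases from the gene start in the GENCODE M21 annotation. The bases after either Slc25a15 start were not found in a transcript of the gene in that annotation. Those after the Nags, Otc, Hal and Ass1 starts were found, so the Slc25a15 windows are less certain. A match describes the letters of a window only.

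A pair of libraries stood apart from the other 10, and the results turn on them. Aged/doxo library 2 had 27.6% of its TPM in transcripts of the mitochondrial genome and young control library 1 had 12.4%, against 8.10% to 11.9% in the other 10. They also held fewer genes at 1 TPM or more, 9741 and 9568 against 10263 to 11023, and the steepest decline of expression with gene length, at slopes of -0.473 and -0.472 against -0.449 to -0.229 (log2 TPM + 1 per log2 base). Aged/doxo library 4 was near the pair in slope, at -0.449, with the next at -0.387 in treated library 1. It was not near them in mitochondrial share (11.2%) or genes at 1 TPM or more (10756). Fits without the pair still hold aged/doxo library 4, where Cps1 stood at 46.1% and Slc25a15 at 60.7% of their medians. All 9 hepatocyte markers looked for with a row in the matrix passed the filter described below, with summed levels of 104368 to 114799 TPM in treated, 87530 to 123814 TPM in aged/doxo and 86782 to 104832 TPM in young control libraries. Other cell types that express some of these genes were looked for by marker lists. Of 7 intestinal epithelium markers 4 were at 0 throughout, and the list summed to 49.8 to 87.6 TPM in treated, 31.3 to 68.4 TPM in aged/doxo and 33.1 to 81.2 TPM in young control libraries. Most of that sum was a single marker, Fabp2, at 23.0 to 86.65 TPM, named after its values were seen. Vil1 and Lgals4 reached no more than 0.23 and 8.19 TPM. The 12 Kupffer cell and macrophage markers summed to 183 to 273 TPM in treated, 73.4 to 466 TPM in aged/doxo and 179 to 317 TPM in young control libraries. Erythroid markers summed to 846 to 1778 TPM in treated, 1839 to 2568 TPM in aged/doxo and 836 to 1991 TPM in young control libraries. The 9 endothelial markers summed to 45.4 to 90.7 TPM in treated, 26.5 to 62.3 TPM in aged/doxo and 24.3 to 67.8 TPM in young control libraries. All 9 had positive log2 fold changes of treated against aged/doxo liver (median 0.61), where 81.0% of all genes did (median 0.30). Against young control liver all 9 were also positive (median 0.60), where 84.0% of all genes were (median 0.23). Of the 9, 0 were called in either. With each library's slope of expression on gene length in the fit the medians were each 0.46, beside 0.02 and 0.04 for all genes. Other lists moved in treated against aged/doxo liver too. Of 12 Kupffer cell and macrophage markers 11 were above 0 (median 0.52, or 0.48 with that slope). Of 5 erythroid markers tested 1 was above 0 (median -0.73, or -0.72 with that slope). The part of these cell types in the results was not tested. Fewer hepatocytes and less RNA per hepatocyte cannot be told apart in bulk tissue.

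All 10 genes were abundant. TPM is scaled to transcript length, so levels can be set side by side. The decline of expression with gene length differed between libraries, which limits such comparisons between genes of unlike length. Over the 12 libraries Ass1 averaged 2170 TPM, Arg1 971 TPM, Cps1 456 TPM, Asl 287 TPM, Gls2 191 TPM, Otc 181 TPM, Hal 169 TPM, Sds 121 TPM, Slc25a15 65.1 TPM and Nags 43.1 TPM. Ass1 stood above Arg1, and Arg1 above Cps1, in 12 of 12 libraries. Cps1 stood above Asl in only 9, Gls2 above Otc in 8 and Otc above Hal in 9, so these neighbours do not keep their order. Together the 10 genes held between 0.245% of TPM, in aged/doxo library 2, and 0.638%, in treated library 4.

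Cps1 encodes carbamoyl phosphate synthetase, the entry enzyme of the cycle, and varied most of the 10. It stood at 356, 620.4, 613 and 856 TPM in treated libraries 1 to 4. Aged/doxo libraries held 555, 80.6, 543 and 218 TPM, and young control libraries 152, 718, 403 and 362 TPM. The groups overlapped throughout, and the lowest values were those of aged/doxo library 2 and young control library 1. The highest library held 10.61 times the lowest, and still 3.92 times without those 2 libraries. Among 1556 tested genes at least as abundant as Nags, 97.3% had a smaller spread than Cps1, and 96.7% without the 2 libraries. Cps1 lies on the plus strand of chromosome 1 (67123026 to 67231259) with 38 exons.

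Slc25a15, the mitochondrial carrier that exchanges ornithine for citrulline, followed Cps1. Treated libraries held 62.8, 76.7, 88.5 and 98.7 TPM. Aged/doxo libraries held 77.1, 17.6, 76.9 and 45.6 TPM, and young control libraries 30.95, 79.5, 53.03 and 73.65 TPM. Its 3 lowest libraries were those of Cps1, namely aged/doxo 2, young control 1 and aged/doxo 4. The ratio of Cps1 to Slc25a15 moved 1.97-fold over the 12 libraries, from 4.57 to 9.03, while the ratio of Cps1 to Otc moved 6.47-fold. Nags makes N-acetylglutamate, without which the Cps1 enzyme is inactive. It was steady in treated libraries at 49.4, 46.7, 49.8 and 50.3 TPM (CV 3.35%). It stood at 48.2, 17.45, 45.2 and 42.8 TPM in aged/doxo and at 28.45, 48.25, 41.35 and 48.8 TPM in young control libraries. Without the 2 libraries it ran only from 41.35 to 50.3 TPM, a 1.22-fold range. Gls2, the liver glutaminase that releases ammonia from glutamine beside the cycle, was at 181, 188, 226 and 239.8 TPM in treated livers, 196, 100.2, 223 and 149 TPM in aged/doxo, and 173, 202.6, 203.2 and 216 TPM in young control libraries. Aged/doxo libraries 2 and 4 lay below every library of the other groups.

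**Figure D1:**
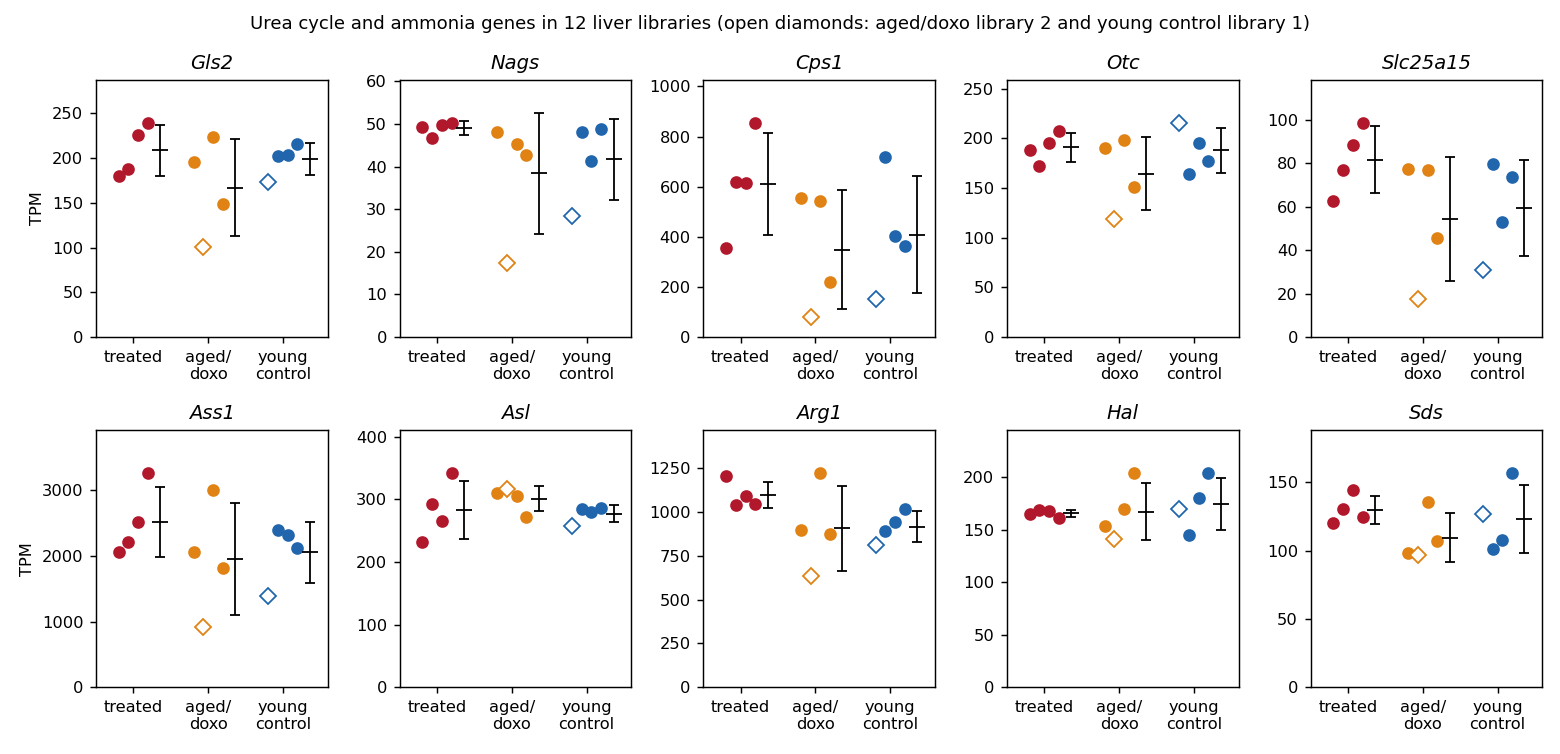
TPM of the 10 genes in each library, 1 panel per gene with its own axis from 0. Points are libraries, horizontal ticks with bars are the mean and SD of 4 libraries, and open diamonds are aged/doxo library 2 and young control library 1. The diamonds are the 2 lowest points for Cps1, Slc25a15, Nags, Ass1 and Arg1, while Asl and Hal lie close together in all groups.

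Otc joins carbamoyl phosphate to ornithine and acts directly after Cps1, yet did not share its spread. Treated libraries held 189, 172, 195 and 208 TPM, aged/doxo libraries 191, 119, 198 and 151 TPM, and young control libraries 216, 164, 196 and 177 TPM. Young control library 1, low for Cps1, was the highest of all for Otc. Otc lies on chromosome X, from 10252305 to 10321024.

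In the cytosol, Ass1 condenses citrulline with aspartate. It stood at 2056, 2205, 2513 and 3257 TPM in treated livers, 2062, 925, 2992 and 1812 TPM in aged/doxo, and 1383, 2394, 2317 and 2121 TPM in young control libraries. Asl, which then splits argininosuccinate to arginine and fumarate, was at 231, 293, 265 and 342 TPM in treated livers, 309.9, 317, 305 and 272 TPM in aged/doxo, and 258, 284, 280.2 and 287 TPM in young control libraries. Aged/doxo library 2 was the lowest for 9 of the 10 genes, as it was for 70.1% of the 1556 genes. Asl was the exception, and there it stood at 111% of its median. The ratio of Ass1 to Asl was accordingly 2.92 in that library and 9.80 in aged/doxo library 3. Arg1, the arginase that releases urea, was at 1201, 1041, 1089 and 1045 TPM in treated libraries. It was at 895, 634, 1220.5 and 873 TPM in aged/doxo and at 809, 888, 939 and 1018 TPM in young control libraries. All 4 treated libraries lay above all 4 young control libraries, a comparison in which 4.02% of all genes had groups that did not overlap. Arg1 was the only gene of the 10 with such groups, and only in that comparison.

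Hal and Sds release ammonia directly from amino acids. Hal, the ammonia-lyase that opens histidine breakdown, was at 165, 169, 168 and 161 TPM in treated libraries (CV 2.14%). It was at 154, 141, 169.9 and 204 TPM in aged/doxo and at 170.02, 145, 180.4 and 204 TPM in young control libraries. Sds, the dehydratase that turns serine into pyruvate and ammonia, was at 121, 131, 144 and 124 TPM in treated livers, 98.7, 96.5, 135 and 107 TPM in aged/doxo, and 127, 101, 108 and 157 TPM in young control libraries. The highest library held 1.45 times the lowest for Hal and 1.63 times for Sds. In aged/doxo library 2 they stood at 83.8% and 78.8% of their medians, and in young control library 1 at 101% and 104%.

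**Figure D2:**
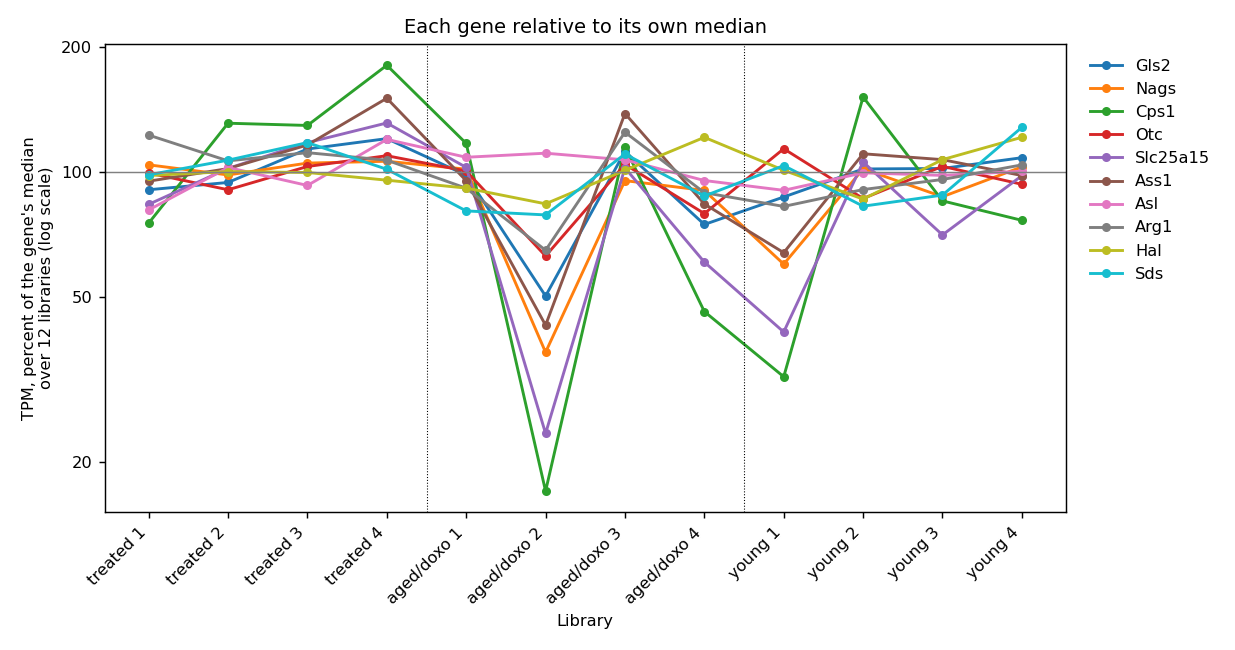
TPM of each gene as a percent of its own median over 12 libraries, on a log axis, with libraries ordered treated, aged/doxo, young control. In aged/doxo library 2 Cps1 stood at 17.0% and Slc25a15 at 23.5% of the median while Asl stood at 111%, and in young control library 1 Cps1 stood at 32.1% and Otc at 114%.

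The 10 genes differed in how low they stood in the same libraries. In aged/doxo library 2, Cps1 stood at 17.0% of its median, Slc25a15 at 23.5%, Nags at 36.8%, Ass1 at 42.8% and Gls2 at 50.3%. The median of the 1556 genes was 50.8% in that library, so 5 of the 10 were below it and Otc, Arg1, Sds, Hal and Asl above, at 62.8% to 111%. In young control library 1 the median gene stood at 71.4%, and 4 of the 10 were below it, namely Cps1 at 32.1%, Slc25a15 at 41.2%, Nags at 60.0% and Ass1 at 63.9%. The deposited lengths are 5555 bases for Cps1, 3430 for Slc25a15, 2573 for Gls2, 2319 for Otc, 2028 for Nags, 1824 for Asl, 1696 for Ass1, 1477 for Arg1 and 1207 for Sds. Hal, with 5319 bases, is nearly as long as Cps1. The 2 transcripts differ in make-up, since Cps1 has 4500 coding bases and a 3′ untranslated region of 916, and Hal 1971 coding bases and one of 2985. The part of mitochondrial RNA, length dependence or depth in these low values was not tested.

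**Figure D3:**
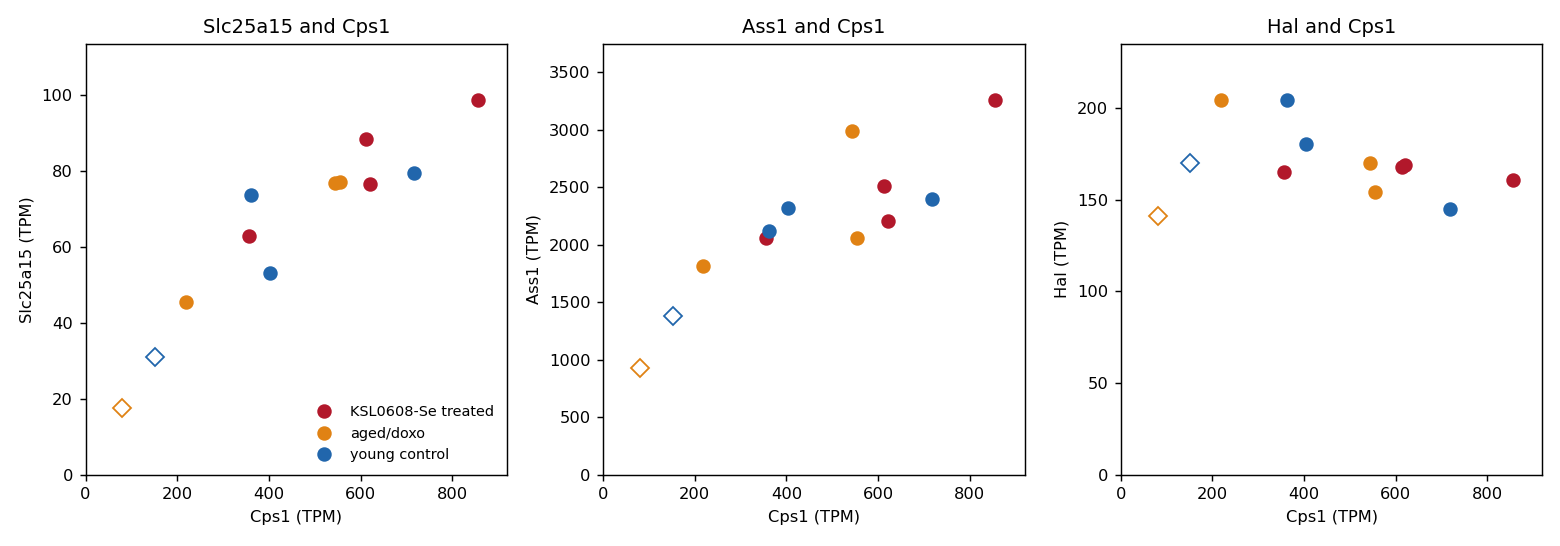
TPM of Slc25a15, Ass1 and Hal against TPM of Cps1 in the 12 libraries, with open diamonds for aged/doxo library 2 and young control library 1. Slc25a15 and Ass1 are lowest where Cps1 is lowest, while Hal stays between 141 and 204 TPM over the whole range of Cps1.

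Likeness to Cps1 was described by Pearson r of log2(TPM + 1) over the 12 libraries, which share the low libraries above. The median r over 10883 genes was 0.759, and 25.3% of them had r above 0.9. Beside it, r was 0.969 for Slc25a15, 0.933 for Ass1, 0.885 for Nags, 0.876 for Gls2, 0.726 for Arg1 and 0.559 for Otc. It was 0.290 for Sds, 0.183 for Asl and -0.011 for Hal. Outside the 10, the genes most like the mean of the 5 cycle enzymes (Cps1, Otc, Ass1, Asl and Arg1, each standardised) were Papss2, Insig1, Thrb, Slc35d2 and Ap3m1, with r from 0.947 to 0.970. None of these 5 belongs to a list used here. Of the 10883 genes 3.11% had r above 0.9 to that mean. The enzymes within it shared it unequally, with r of 0.968 for Ass1, 0.926 for Cps1, 0.806 for Arg1, 0.724 for Otc and 0.247 for Asl.

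Set against young control liver, aged/doxo liver showed no called change in any of the 10 genes. Here and below a call is an adjusted p under 0.05 from limma, fitted to log2(TPM + 1) in the 10883 genes with a mean of at least 1 TPM and adjusted by Benjamini-Hochberg over all of them. All 10 genes passed that filter. Of them 0 were called, where limma called 0.00919% of all genes, and 0 had an unadjusted p under 0.05, where 1.98% of all genes did. Gls2 had the smallest p, with aged/doxo livers at 167 ± 54.2 TPM and young control livers at 199 ± 17.9 TPM (SD, n = 4 each). Its log2 fold change was -0.31 (95% interval -0.83 to 0.21, limma adjusted p = 1.0). For Cps1 the aged/doxo mean was 349 ± 237 TPM and the young control mean 409 ± 233 TPM, a log2 fold change of -0.39 (interval -1.68 to 0.89). Asl alone of the 10 had a positive value, 0.12 (interval -0.24 to 0.48), where 35.2% of all genes did. The median of the 10 was -0.17, beside -0.08 for all genes. This direction rested on aged/doxo library 2. Without it 7 of the 10 were above 0, where 74.9% of all genes were, with a median of 0.10 beside 0.10 and Cps1 at 0.18. Without that library and young control library 1 the median was -0.02 beside -0.04. In 0 of the 10 did the groups not overlap, where 1.0% of all genes had groups that did not.

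Set against aged/doxo liver, KSL0608-Se treated liver had higher means for 8 of the 10 genes on the log scale, but so did 81.0% of all genes, and none of the 10 was called. limma called 0.00919% of all genes in this comparison, and 4.77% had an unadjusted p under 0.05 against 0 of the 10. For Cps1 the treated mean was 611 ± 204 TPM and the aged/doxo mean 349 ± 237 TPM (SD, n = 4 each). The log2 fold change was 1.11 (interval -0.18 to 2.40, limma adjusted p = 0.427). For Slc25a15 the treated mean was 81.7 ± 15.4 TPM and the aged/doxo mean 54.3 ± 28.6 TPM, a log2 fold change of 0.77 (interval -0.16 to 1.70, limma adjusted p = 0.427). Ass1, Nags, Gls2 and Arg1 had log2 fold changes of 0.46, 0.44, 0.37 and 0.31, Sds and Otc of 0.26 and 0.24. Hal had a value of -0.00048 (interval -0.38 to 0.38) and Asl one of -0.10 (interval -0.46 to 0.26). The median of the 10 was 0.34 beside 0.30 for all genes. Without aged/doxo library 2 and young control library 1 it was 0.15 beside 0.13, with Cps1 at 0.53, Slc25a15 at 0.31, Ass1 at 0.14 and Nags at 0.11. In 0 of the 10 did the groups not overlap, where 3.13% of all genes had groups that did not.

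**Figure D4:**
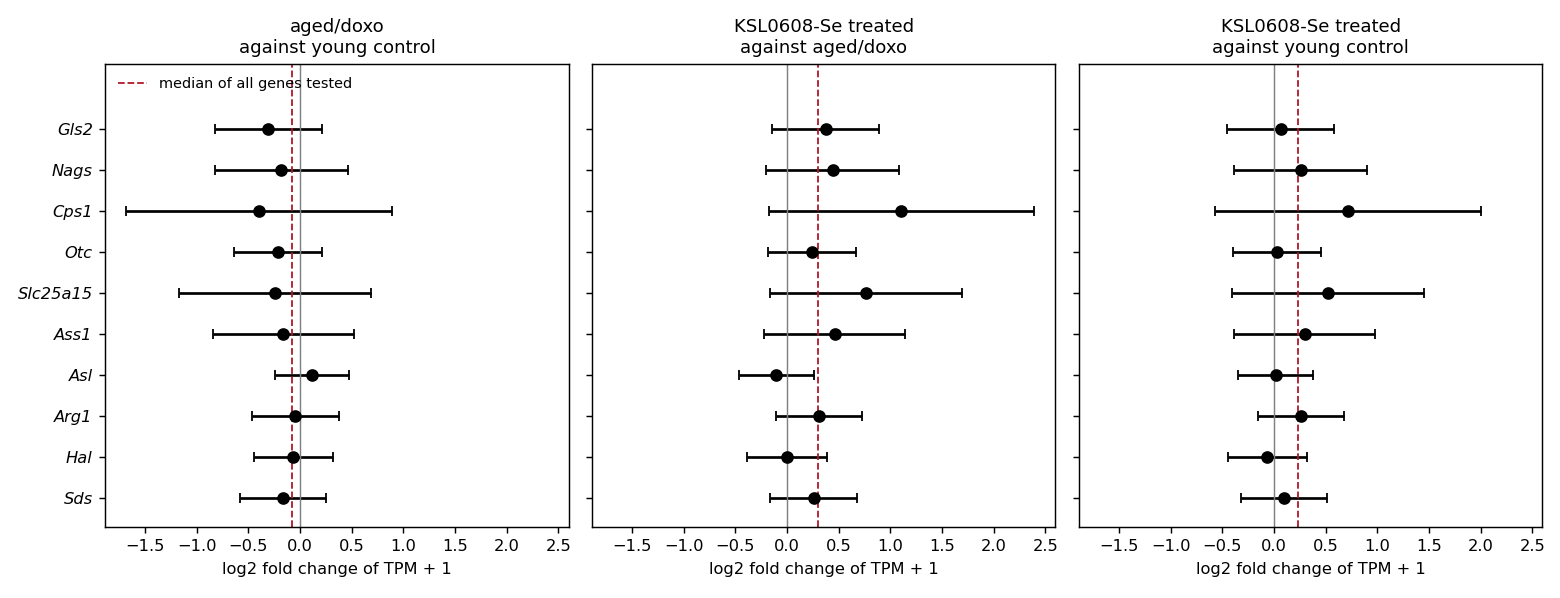
Log2 fold change of TPM + 1 for the 10 genes in the 3 comparisons, with 95% intervals from limma. The dashed line is the median of all 10883 genes, at -0.08, 0.30 and 0.23 from left to right, and every interval includes 0.

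The highest of these fold changes also depended on how the length dependence of the libraries was treated. With each library's slope of expression on gene length as a covariate, Cps1 had a log2 fold change of treated against aged/doxo liver of -0.0063, Slc25a15 of 0.06 and Ass1 of 0.0086. The median of all genes was 0.02 in that fit. Median-of-ratios scaling shifted the median of all genes to 0.03, and there Cps1 stood at 0.78 and Slc25a15 at 0.44, while Arg1, Sds and Otc stood at -0.02, -0.07 and -0.09 and Hal and Asl at -0.33 and -0.43. The slope differs between groups as well as within them, so both cannot be told apart here.

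**Figure D5:**
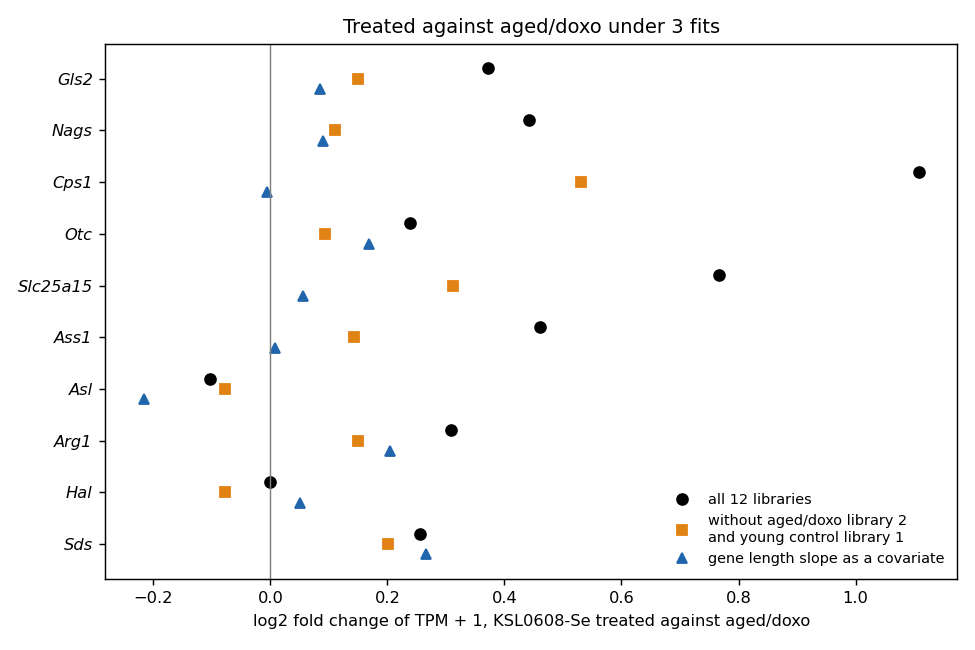
Log2 fold change of KSL0608-Se treated against aged/doxo liver for the 10 genes in 3 limma fits. Cps1 stood at 1.11 with all 12 libraries, 0.53 without aged/doxo library 2 and young control library 1, and -0.0063 with the gene length slope as a covariate, while Hal and Asl stayed within 0.22 of 0 in each.

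Treated liver was also set against young control liver, with the young libraries shared with the first comparison and the treated ones with the second. None of the 10 was called, where limma called 0.0276% of all genes, and 0 had an unadjusted p under 0.05, where 3.4% did. For Arg1 the treated mean was 1094 ± 74.6 TPM and the young control mean 913 ± 88.1 TPM (SD, n = 4 each). The log2 fold change was 0.26 (interval -0.16 to 0.68, limma adjusted p = 0.734). Its groups did not overlap, and neither did those of 4.02% of all genes. With median-of-ratios scaling its value was -0.03. Cps1 had 0.71 (interval -0.57 to 2.00), Slc25a15 0.52, Ass1 0.30 and Nags 0.26, and the other 5 lay between -0.07 and 0.09. Without young control library 1, Cps1 stood at 0.31, Slc25a15 at 0.25, Ass1 at 0.12 and Nags at 0.09. Of the 10, 9 were above 0, where 84.0% of all genes were, and their median was 0.18 beside 0.23 for all genes. With the length slope as a covariate 4 of the 10 were above 0, where 60.7% of all genes were, and with median-of-ratios scaling 3 of the 10, where 48.4% were.

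Around the cycle, genes that supply ammonia or handle glutamine were followed as a list of 20, of which 17 passed the filter. Arg2, the other arginase, and Slc25a2, another ornithine carrier, were among those that did not pass, at no more than 0.3 and 0.21 TPM in any library. None of the 17 was called in any comparison. Car5a, the mitochondrial carbonic anhydrase that gives Cps1 its bicarbonate, had a mean of 72.0 ± 8.14 TPM in treated livers, 52.3 ± 25.4 TPM in aged/doxo livers and 57.2 ± 15.5 TPM in young control livers (SD, n = 4 each). Slc25a13, the carrier that exports the aspartate used by Ass1, had a mean of 62.2 ± 12.4 TPM in treated livers, 39.7 ± 24.6 TPM in aged/doxo livers and 45.6 ± 17.4 TPM in young control livers. In aged/doxo library 2 they stood at 28.3% and 23.5% of their medians. Glud1, glutamate dehydrogenase, stood there at 31.8%. All 17 had positive log2 fold changes of treated against aged/doxo liver, with a median of 0.59, and 15 of 17 without aged/doxo library 2 and young control library 1, with a median of 0.22. Of all genes, 81.0% and 72.7% were above 0 in these fits, with medians of 0.30 and 0.13. With the length slope as a covariate 11 of the 17 were above 0, where 56.2% of all genes were, with a median of 0.04 beside 0.02. The smallest p belonged to Slc38a2 and Slc7a2, carriers of neutral and of cationic amino acids, with log2 fold changes of 0.65 (limma unadjusted p = 0.013, n = 4 each, adjusted p = 0.427) and 1.03 (limma unadjusted p = 0.0208, adjusted p = 0.427).

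Other amino acid breakdown also held unequal levels among steps of a single pathway. Of 30 enzymes, 30 passed the filter and 0 were called in any comparison. Downstream of Hal in histidine breakdown, Uroc1, Amdhd1 and Ftcd stood at 51.1%, 69.9% and 42.4% of their medians in young control library 1, where Hal stood at 101%. Uroc1 and Ftcd were picked after their values were seen, as was Aldh4a1, the mitochondrial dehydrogenase of proline breakdown. Aldh4a1 ran from 1.05 TPM in young control library 1 to 115 TPM in treated library 4, a 109.7-fold range, and stood at 2.03 TPM in aged/doxo library 2. Tat, the tyrosine aminotransferase, had a treated mean of 665 ± 107 TPM and an aged/doxo mean of 368 ± 175 TPM (SD, n = 4 each), a log2 fold change of 0.99 (limma adjusted p = 0.427), or 0.60 without aged/doxo library 2. The median of the 30 in that comparison was 0.52, and 0.22 without aged/doxo library 2. It was 0.06 in the fit with the length slope. The medians of all genes in these fits were 0.30, 0.13 and 0.02.

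Of 16 regulators of liver amino acid genes 14 passed the filter and none was called in any comparison. Klf15, a fasting-induced activator of amino acid breakdown, had a mean of 57.9 ± 7.10 TPM in treated livers, 37.6 ± 12.3 TPM in aged/doxo livers and 41.6 ± 8.90 TPM in young control livers (SD, n = 4 each). Its log2 fold change of treated against aged/doxo liver was 0.66 (limma adjusted p = 0.427), or 0.44 without aged/doxo library 2. Hnf4a and Cebpa, hepatocyte transcription factors, stood at 45.3% and 32.5% of their medians in aged/doxo library 2. Gcgr, the glucagon receptor, stood at 93.9% there and at 54.3% in young control library 1. Hnf4a and Gcgr were picked after their values were seen.

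Zonal markers outside the 10 were set beside them. Of 10 other periportal markers 0 were called in any comparison, and their median log2 fold change of aged/doxo against young control liver was -0.44 with 1 of 10 above 0. Without aged/doxo library 2 it was -0.0097 with 5 of 10 above 0. Of all genes 35.2% and 74.9% were above 0 in these fits, with medians of -0.08 and 0.10. Cyp2f2, a periportal cytochrome P450, had an aged/doxo mean of 518 ± 351 TPM and a young control mean of 660.5 ± 252 TPM (SD, n = 4 each), a log2 fold change of -0.55, or -0.055 without aged/doxo library 2. Of 14 pericentral markers 0 were called in any comparison. Their median in this one was 0.08, or 0.35 without that library, beside -0.08 and 0.10 for all genes. In treated against aged/doxo liver the periportal median was 0.73, beside 0.25 for the pericentral markers and 0.30 for all genes. With the length slope as a covariate it was 0.04, beside 0.01 and 0.02. There 2 of the 10 periportal and 1 of the 14 pericentral markers had groups that did not overlap, all higher in treated liver. Of all genes 3.13% had groups that did not overlap. In treated against young control liver, 4 of the 14 pericentral markers had groups that did not overlap, all higher in treated liver, where 3.66% of all genes had the same. These were Rgn, Cyp2a5, Oat and Slc1a4. Oat, which breaks down ornithine, stood at 366 to 469 TPM in treated and at 233 to 304.5 TPM in young control libraries (log2 fold change 0.65, limma adjusted p = 0.734). Rgn, regucalcin, stood at 785 to 953 TPM in treated and at 568 to 611 TPM in young control libraries (log2 fold change 0.56, limma adjusted p = 0.734). Glul, glutamine synthetase, did not share this, at 337 to 407 TPM in treated and 190.5 to 358 TPM in young control libraries. Slc1a4 was picked after its values were seen. It was low, at 2.63 to 3.43 TPM in treated and 0.69 to 2.61 TPM in young control libraries. The median of the 14 in this comparison was 0.32 beside 0.23 for all genes. With the length slope as a covariate it was 0.12 beside 0.04. For Oat, Rgn and Cyp2a5, levels above young control were not particular to treated liver. Aged/doxo libraries held, in order, 353, 138, 648 and 438 TPM of Oat and 731, 496, 885 and 898 TPM of Rgn. Without aged/doxo library 2, aged/doxo against young control liver gave log2 fold changes of 0.75 for Oat, 0.50 for Rgn and 0.98 for Cyp2a5.

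By gene identifier, the GENCODE M21 annotation of GRCm38 has all 10 as protein-coding genes. Slc25a15 lies on chromosome 8 (22375551 to 22398597) and Nags on chromosome 11 (102145513 to 102149477). Ass1 is on chromosome 2 (31470207 to 31520672), Asl on chromosome 5 (130011258 to 130029247) and Sds on the same chromosome (120476526 to 120483932). Arg1 (24915221 to 24927484), Hal (93488768 to 93519304) and Gls2 (128194457 to 128210004) are all on chromosome 10. Genes on the opposite strand overlap Gls2 (Spryd4, 97 bases), Nags (Gm11586, 698 bases) and Sds (Plbd2, 651 bases, and Gm15690, 1062 bases). The labels do not say whether the libraries were stranded, so reads in these overlaps cannot be assigned with certainty. The overlapping genes reached no more than 25.75 TPM in any library.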

How the data were processed

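Liver RNA of 12 mouse libraries was measured by RNA-seq. The authors deposited 1 table of TPM per gene, rounded to 2 decimals, with gene lengths and group values. Per the submitters' processing notes, fastp, HISAT and RSEM were used. Their versions, the genome build and the annotation are not named in any source used here. Each library summed to about 1000000 TPM, so the sequencing depth is unknown and counting error cannot be stated. TPM sums to a constant, so abundant genes can shift all others.

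limma 3.58.1 in R 4.3.3 was fitted to log2(TPM + 1) with a pseudocount of 1, group as the only term, all 12 libraries and an intensity trend, in the 10883 genes that averaged 1 TPM or more. Tests were two-sided, with intervals of 95% and the procedure tested on simulated data. Fold changes on this scale understate those of low genes. The 10 genes, the lists and the tests were chosen with earlier results of these data known. From each related list up to 3 genes of smallest p per comparison could be named, and exceptions are stated. Some items of these lists are not reported here by name. Alternatives covered the pseudocount (0.1), the filter (no filter, or 5 TPM or more on average), 2 other scalings, the replicate block, the compared groups alone, the length slope as a covariate and leaving out libraries. Promoters were RefSeq sequence on GRCm38.p6. Plots used matplotlib 3.10.9 under Python 3.11.15.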

Additional observations from a re-analysis of the deposited data

How the results depend on the processing

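None of the 10 genes was called in any comparison under any of 21 alternatives, and the smallest limma adjusted p they gave was 0.214. Of 630 log2 fold changes of the 10 genes recomputed, 586 kept their sign and 44 did not. Many of the 630 could not change sign. Another filter, the replicate block and the compared groups alone leave a fold change as it was. So does leaving out a library of the group outside the comparison. The count of kept signs is therefore no measure of how robust the values are. Over all genes, 1, 1 and 3 were called in aged/doxo against young control, treated against aged/doxo and treated against young control liver. In the same order, the counts were 0, 2 and 1 with the compared groups alone, 0, 0 and 1 with no filter, 3, 0 and 5 with a total without the 50 most abundant and mitochondrial genes, and 3, 1 and 6 without aged/doxo library 2 and young control library 1. The first was 2 with a pseudocount of 0.1. They were 2, 0 and 2 with the length slope, and 3, 0 and 2 with median-of-ratios scaling. Leaving out single libraries gave 0 to 4, 0 to 2 and 1 to 6.

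With the replicate number as a block, the counts were 0, 0 and 1 and the fold changes of the 10 genes were unchanged, since every number occurs once in each group. The deviations of same-numbered libraries were not consistently alike. Their correlation ran from -0.58 to 0.39 over the 3 comparisons, and each comparison had at most 1 of 4 pairs above 0.1. In the order above, 0, 0 and 2 of 4 libraries correlated best with their own number. The labels give only the shared number and state no pairing, and so few pairs cannot settle whether a pairing exists.

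With the length slope as a covariate, treated against aged/doxo liver gave -0.0063 for Cps1 and 0.050 for Hal. Treated against young control liver gave -0.0064 for Ass1, -0.021 for Otc, -0.035 for Cps1, -0.061 for Asl and -0.13 for Gls2. With median-of-ratios scaling, treated against aged/doxo liver gave -0.023 for Arg1, -0.074 for Sds and -0.092 for Otc. Treated against young control liver gave -0.027 for Nags, -0.030 for Arg1, -0.035 for Haao, -0.20 for Sds, -0.23 for Gls2, -0.27 for Otc and -0.28 for Asl. That scaling lowered the median of all genes to 0.03 and -0.01 in these comparisons, a shift that applies to all genes alike. With a total without the most abundant genes, treated against young control liver gave -0.081 for Sds, -0.11 for Gls2, -0.15 for Otc and -0.16 for Asl. Without aged/doxo library 2 and young control library 1, aged/doxo against young control liver gave 0.00046 for Otc, 0.00066 for Hal and 0.056 for Arg1, and treated against young control liver gave -0.019 for Asl.

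Leaving out each library in turn, aged/doxo against young control liver gave -0.35 to 0.15 for Nags, -0.80 to 0.18 for Cps1, -0.52 to 0.21 for Slc25a15, -0.41 to 0.15 for Ass1, -0.20 to 0.11 for Arg1 and -0.17 to 0.011 for Hal. In each of these but Hal the highest value was the one without aged/doxo library 2. The regulators Cebpa and Creb3l3 ran from -0.60 to 0.019 and from -0.66 to 0.0065. Treated against aged/doxo liver gave -0.077 to 0.099 for Hal, 0.53 to 1.45 for Cps1 and 0.31 to 1.00 for Slc25a15, with Cps1 and Slc25a15 lowest without aged/doxo library 2. Treated against young control liver gave -0.0056 to 0.13 for Gls2, -0.038 to 0.094 for Otc, -0.081 to 0.11 for Asl and -0.15 to 0.011 for Hal. The cause of these changes was not tested. With depth unknown, the counting error behind each TPM cannot be given.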
